A study of Mus musculus with 18 samples.

Results

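Tyrosine hydroxylase (Th), the ryanodine receptors Ryr1 and Ryr3 and neuronal nitric oxide synthase (Nos1) are 4 genes known to be dysregulated in the cerebellum of other mice with mutations of the Cav2.1 calcium channel. Their transcripts were followed on every probe set annotated to exactly 1 of these symbols, which gave 10 probe sets (Th 1, Ryr1 2, Ryr3 3 and Nos1 4) of the 34945 with a single gene symbol. Cerebella of C57BL/6 mice were hybridised to 18 Affymetrix expression arrays, in a study of spinocerebellar ataxia type 6, the ataxia caused by a repeat expansion in the gene of that channel. The groups, of 3 arrays each, were homozygous MPI 118Q/118Q knock-in mice (118Q KI) and their wild-type littermates (118Q WT), homozygous Sca6 CtmKO/CtmKO mice (Ctm KO) and their wild-type littermates (Ctm WT), and homozygous MPI 11Q/11Q knock-in mice (11Q KI) and their wild-type littermates (11Q WT). An age of 6 weeks is given for the 118Q KI and Ctm KO mice, the labels name no sex, founder line or pooling, and the 118Q and 11Q alleles differ by name in the length of the glutamine tract. Nothing in the labels says more of the replicates than that they are separate samples, so p-values measure the spread between these arrays.

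Cav2.1, encoded by Cacna1a, carries the P/Q-type calcium current of Purkinje and granule cells. Th makes L-DOPA from tyrosine and limits the rate of catecholamine synthesis; Purkinje cells of several Cav2.1 mutant mice are known for producing it where the healthy adult cell hardly does. Ryanodine receptors release calcium from the endoplasmic reticulum into the cytosol after calcium entry. Ryr1 is the skeletal muscle form and is found in Purkinje cells too, and Ryr3 is a form with wide, low expression. Nos1 makes nitric oxide in granule cells and molecular layer interneurons, and the gas acts on guanylyl cyclase, which makes cGMP, in Purkinje cells.

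The values are log2 probe set levels on the authors' scale, whose zero point is not given, so that the size of a change in a dim gene depends on the background step used. Array medians lay between 2.38 and 2.55, and pairs of arrays correlated between 0.973 and 0.995. Cacna1a itself was at -0.29, -0.061 and -0.086 in 118Q KI, Ctm KO and 11Q KI relative to their wild types, short of the threshold each time, and where its probe set lies relative to the altered sequence is not known. Marker genes of the tissue were present: Purkinje markers averaged from 8.36 to 9.39 and granule cell markers from 8.59 to 9.05 over the arrays.

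No probe set of Th, Ryr1, Ryr3 or Nos1 passed the test in any mutant. With limma's moderated test and Benjamini-Hochberg adjustment over all 34945 probe sets (threshold 0.05), 0 of 10 were called in 118Q KI, against 0.558% of all probe sets, 0 of 10 in Ctm KO, against 0.916%, and 0 of 10 in 11Q KI, against 0.0%. At an unadjusted p below 0.05 the members gave 1 of 10 in each line. The share of all probe sets past that mark was 14.1% in 118Q KI, 11.0% in Ctm KO and 5.24% in 11Q KI. All 3 mutant arrays lay on 1 side of all 3 wild-type arrays for 1 of 10 probe sets in the 118Q line (16.3% of all probe sets), 0 of 10 in the Ctm line (19.4%) and 1 of 10 in the 11Q line (9.88%). With 10 probe sets, 1 of them decides each of these shares. The unadjusted share of the members in 11Q KI, 1 of 10, was above the 5.24% of all probe sets. The other shares of the members were close to, or under, those of the whole table. Changes of the 10 probe sets ran from -0.55 to 0.36 in 118Q KI (median -0.11, against 0.034 over all probe sets), from -0.12 to 0.50 in Ctm KO (median 0.086, against -0.041) and from -0.16 to 0.46 in 11Q KI (median 0.12, against -0.011).

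**Figure D1:**
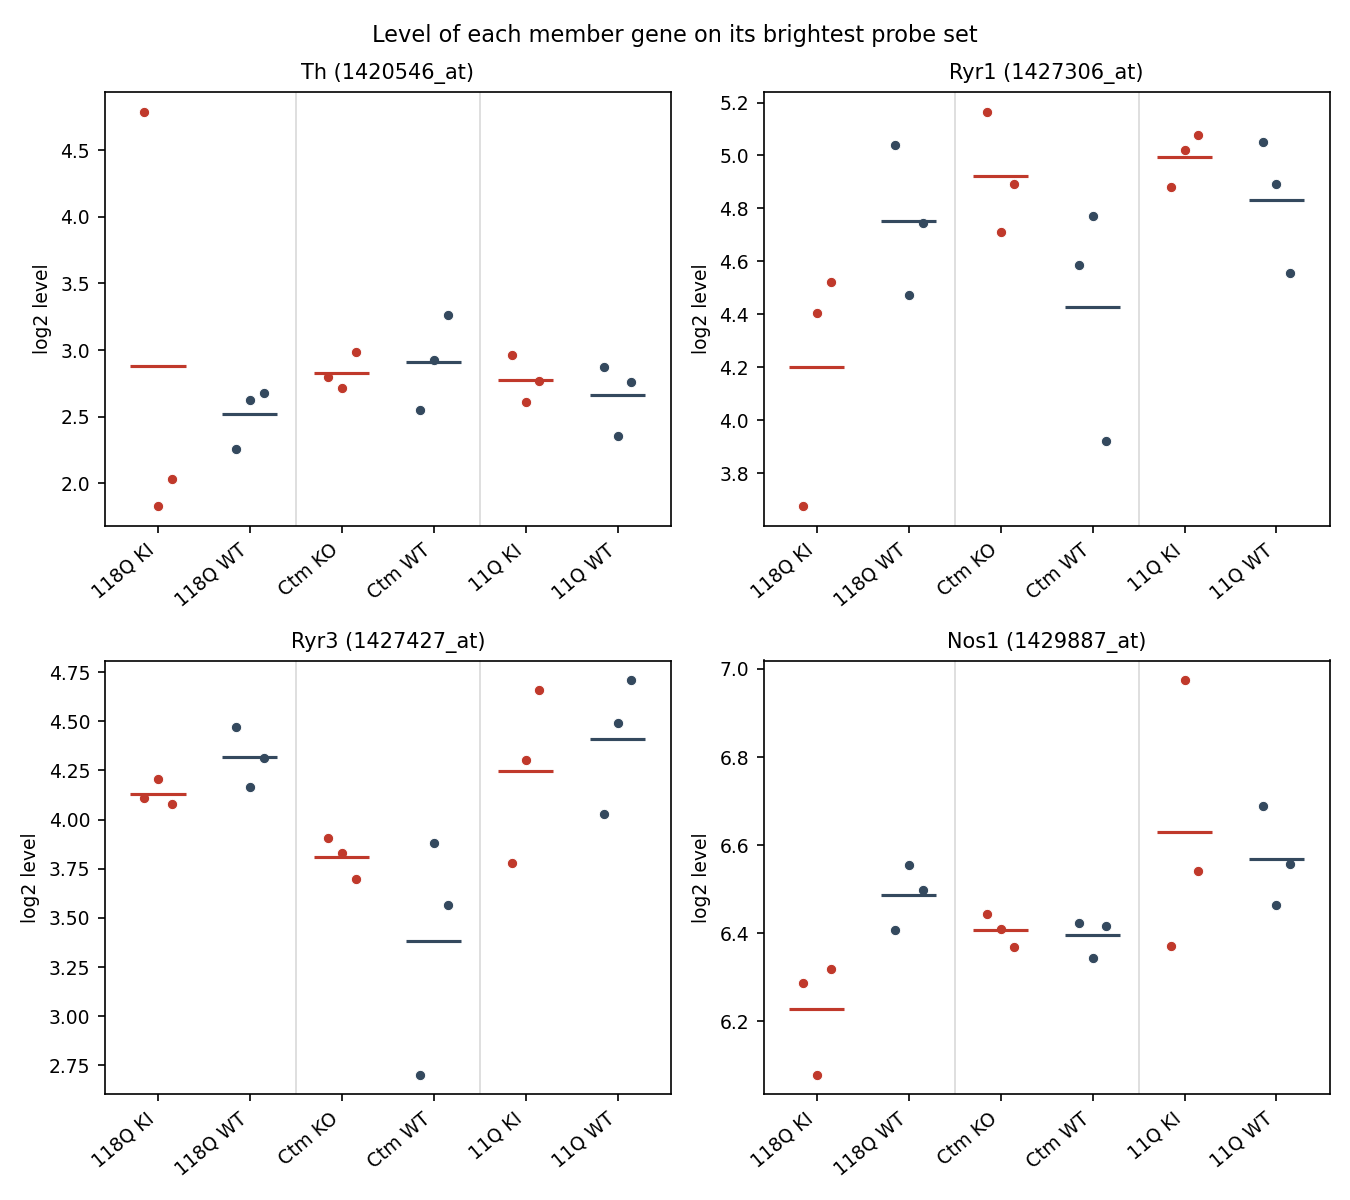
Log2 level (y axis, a separate range in each panel) of Th, Ryr1, Ryr3 and Nos1 on the brightest probe set of each gene in the 6 groups (x axis); each point is 1 array and each bar the mean of 3 arrays. Th stands at 4.79 on a single 118Q KI array, and both Ctm groups sit low in Ryr3.

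Levels of Th were low and, on all arrays but 1, close together. Probe set 1420546_at averaged 2.76 over the 18 arrays, below the median of 3.02 over all probe sets, and 47.4% of probe sets were dimmer. Its levels were 4.79, 1.83 and 2.04 in 118Q KI, against 2.26, 2.62 and 2.68 in 118Q WT. They were 2.80, 2.71 and 2.98 in Ctm KO, against 2.55, 2.93 and 3.26 in Ctm WT. In 11Q KI they were 2.96, 2.61 and 2.76, against 2.87, 2.35 and 2.76 in 11Q WT. The first 118Q KI array was thus the highest of all 18 arrays and the other two of that genotype the lowest of all 18. The mean change in 118Q KI was 0.36 (SE 0.48, adjusted p = 0.805), and without the first 118Q KI array it was -0.59 (adjusted p = 0.119), a change of sign. In Ctm KO it was -0.081 and in 11Q KI 0.12 (SE 0.48 each, adjusted p = 0.977 and 0.978). The 95% interval of the Th change ran from -0.65 to 1.38 in 118Q KI, from -1.09 to 0.93 in Ctm KO and from -0.90 to 1.13 in 11Q KI, wider than for any other member. By group mean the order was Ctm WT, 118Q KI, Ctm KO, 11Q KI, 11Q WT and 118Q WT, and the arrays of every pair of neighbours in it overlapped.

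The sequence before the Th start site is shown because its cyclic AMP response element is a known control point of the gene. It covers the 250 bases upstream of the annotated start (RefSeq, GRCm38.p6, chr7:142899996-142900245, minus strand), written 5′ to 3′ with the element in capitals.
Th upstream: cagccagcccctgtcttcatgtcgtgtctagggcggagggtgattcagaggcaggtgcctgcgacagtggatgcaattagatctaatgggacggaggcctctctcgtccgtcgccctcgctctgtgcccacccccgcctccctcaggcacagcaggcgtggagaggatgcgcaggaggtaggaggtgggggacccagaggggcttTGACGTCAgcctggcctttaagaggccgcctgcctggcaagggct
The element, TGACGTCA, reads the same on both strands and begins 45 bases before the start. Upstream windows of the same length held it in 508 of 32851 cases (1.55%), and those of Ryr1 and Nos1 did not hold these letters. Binding at this site was not measured here.

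On the first 118Q KI array, Th stood further above the next highest array (by 1.53) than any other of the 18193 genes did on that array, taking the brightest probe set of each. Ddc, whose enzyme turns L-DOPA into dopamine, came 7th in that order with a gap of 1.05. Its levels were 4.69, 3.13 and 3.61 in 118Q KI, against 3.09, 3.64 and 3.58 in 118Q WT. Dbh, whose enzyme makes noradrenaline from dopamine, was read on a probe set of a type that can also match other transcripts. It was at 4.14, 3.98 and 3.68 in 118Q KI, against 4.21, 4.18 and 4.08 in 118Q WT. The array high in Th and Ddc was thus ordinary on this Dbh probe set. The vesicular monoamine transporter gene Slc18a2 reached 1.28 there, 0.010 above the next highest array. In 118Q KI the mean change was 0.37 for Ddc and -0.23 for Dbh, with adjusted p of 0.662 and 0.590. These genes were singled out after their values were seen. Markers of noradrenergic neurons, whose nucleus lies beside the cerebellum, were averaged over 6 of 7 listed genes. Their mean was 2.00 on the first 118Q KI array, 1.67 and 1.76 on the other 118Q KI arrays, and 1.78 to 1.84 in 118Q WT. It was 2.04 on the first Ctm WT array and on the third Ctm KO array. The defining regulator Phox2a stayed between 0.30 and 0.83 on all 18 arrays. The part of these markers in the Th level of the first 118Q KI array was not tested. In whole tissue, fewer cells of a type and less RNA per cell cannot be told apart.

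**Figure D2:**
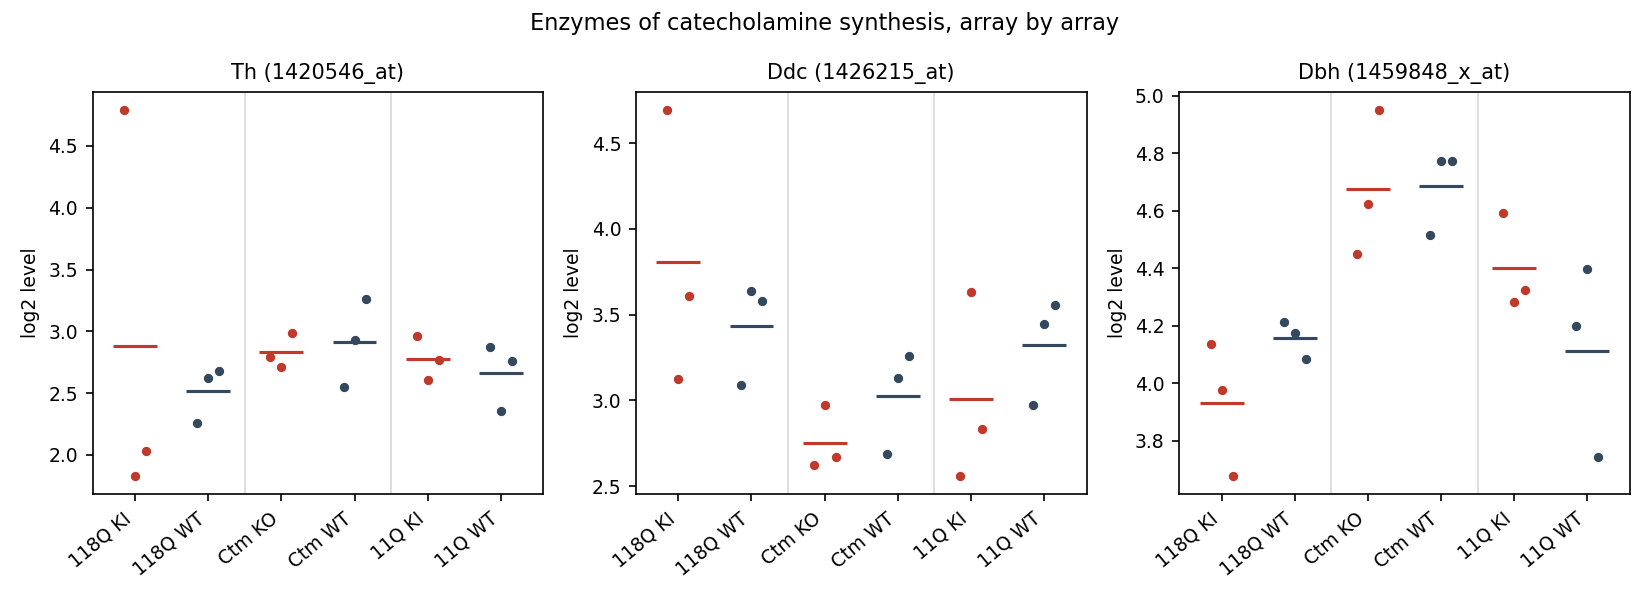
Log2 level (y axis, a separate range in each panel) of the 3 enzymes that turn tyrosine into noradrenaline, Th, Ddc and Dbh, on each array of the 6 groups (x axis); bars are means of 3 arrays. The same 118Q KI array is highest in Th (4.79) and Ddc (4.69), and is at 4.14 in Dbh.

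Among 33 other genes of catecholamine synthesis, transport, breakdown and reception, 27 were measured, and 0 rose and 0 fell in each of the 3 lines. The share called among the brightest probe sets of all 18193 genes was 0.698% in 118Q KI, 0.857% in Ctm KO and 0.0% in 11Q KI. With 118Q WT and 11Q WT together as control, 4 of the 27 were called in Ctm KO, where 9.89% of all probe sets were. Of these 4, 2 were higher and 2 lower: Dbh, Maob, Pcbd1 and Pnmt. Dbh also differed between wild types, with Ctm minus 11Q at 0.58 (adjusted p = 0.0292). The median change of the list was 0.043 in 118Q KI (0.040 over all genes), -0.11 in Ctm KO (-0.060) and -0.049 in 11Q KI (-0.017). Smallest p-values in 118Q KI were those of Pts and Spr, which serve the synthesis of the Th cofactor tetrahydrobiopterin, at 0.30 and -0.23, and of the immediate early gene Nr4a1 at 0.64 (adjusted p = 0.343, 0.374 and 0.447). In Ctm KO they were those of the transcription factor gene Creb1, the monoamine oxidase gene Maob and the adrenergic receptor gene Adra1b, at 0.20, -0.27 and -0.28 (adjusted p = 0.450, 0.462 and 0.469), and in 11Q KI those of Maob, Pts and Adra1b, at -0.43, -0.44 and 0.34 (adjusted p = 0.909 each).

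By mean level, the brighter of the 2 Ryr1 probe sets was lower in 118Q KI and higher in Ctm KO than in their wild types. Neither change passed the test. On this probe set, 1427306_at (mean 4.69, with 68.6% of probe sets dimmer), the levels were 3.68, 4.41 and 4.52 in 118Q KI, against 5.04, 4.47 and 4.75 in 118Q WT. They were 5.17, 4.71 and 4.89 in Ctm KO, against 4.59, 4.77 and 3.92 in Ctm WT, and 4.88, 5.02 and 5.08 in 11Q KI, against 5.05, 4.89 and 4.56 in 11Q WT. Mutant and wild-type arrays overlapped in every line, and the lowest of the 18 values was that of the first 118Q KI array, the one highest in Th. The change was -0.55 in 118Q KI (SE 0.23, adjusted p = 0.274), which is a ratio of 0.683 with a 95% interval from 0.489 to 0.952, and without the first 118Q KI array it was -0.29 (adjusted p = 0.566). As the mean of both probe sets it was -0.24, and with array weights -0.26. It was 0.50 in Ctm KO (SE 0.23, adjusted p = 0.433) and 0.16 in 11Q KI (SE 0.23, adjusted p = 0.935). With the third Ctm WT array left out the change in Ctm KO was 0.24 (adjusted p = 0.951); it was 0.27 as the mean of both probe sets and 0.13 with 118Q WT and 11Q WT together as control (adjusted p = 0.719). The group means ran, high to low, 11Q KI, Ctm KO, 11Q WT, 118Q WT, Ctm WT and 118Q KI, with overlap between all neighbours.

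The difference between lines was tested directly. The 118Q change minus the Ctm change in Ryr1 probe set 1427306_at was -1.05 (SE 0.32, adjusted p = 0.0989), and minus the 11Q change -0.71 (SE 0.32, adjusted p = 0.539). Without the first 118Q KI array these differences were -0.78 and -0.45, and neither passed. Of the 10 probe sets 0 passed between 118Q and Ctm (1.63% of all probe sets did), 0 between 118Q and 11Q (0.0%) and 0 between Ctm and 11Q (0.0%). At an unadjusted p below 0.05 the counts were 1, 2 and 0 of 10, where all probe sets gave 16.5%, 8.98% and 7.91%. The other value past that mark was the 118Q minus 11Q difference of -0.51 (SE 0.20) in Ryr3 probe set 1452533_at.

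The other Ryr1 probe set, 1457347_at, was dim, with a mean of 1.93, and correlated with the brighter one at r = 0.054 over the 18 arrays. No change by genotype passed the test: it was 0.064 in 118Q KI, 0.038 in Ctm KO and 0.072 in 11Q KI (adjusted p from 0.932 to 0.974). The Ctm line and the knock-in lines did differ on this probe set; for the brighter one the F test over wild types did not pass (adjusted p = 0.442). Its levels were 2.33, 2.66 and 2.37 in Ctm KO and 2.64, 2.65 and 1.96 in Ctm WT, and 5 of these 6 arrays lay above all 12 others, which ran from 1.25 to 2.05. Among wild types, Ctm minus 11Q was 0.89 (SE 0.20, adjusted p = 0.00834; from 0.00410 to 0.0409 with each array left out in turn) and 118Q minus Ctm was -0.66 (adjusted p = 0.0465). That last difference passed only without the third Ctm WT array when each was left out in turn (adjusted p from 0.0172 to 0.168). Ctm KO minus 118Q WT and 11Q WT together was 0.81 (adjusted p = 0.00923), where 9.89% of all probe sets passed.

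On 1 of its 3 probe sets Ryr3 also differed between lines, with the Ctm line low, and no change by genotype passed the test on any. Probe set 1427427_at, the brightest of 3 (mean 4.05), had levels of 3.91, 3.83 and 3.70 in Ctm KO, against 2.70, 3.88 and 3.57 in Ctm WT. In the knock-in lines it had 4.11, 4.21 and 4.08 in 118Q KI, against 4.47, 4.17 and 4.31 in 118Q WT, and 3.78, 4.30 and 4.66 in 11Q KI, against 4.03, 4.49 and 4.71 in 11Q WT. Of the 6 Ctm arrays 3 lay below all 12 others, and the remaining 3 lay above a single one of those, the first 11Q KI array at 3.78. The wild types differed by limma's F test (adjusted p = 0.0161), as did those of 10.6% of all probe sets. Ctm WT minus 11Q WT was -1.03 (SE 0.25, adjusted p = 0.0111) and 118Q WT minus Ctm WT was 0.93 (SE 0.25, adjusted p = 0.0229). This probe set and the dim Ryr1 one were the 2 of 10 members called in each of these, where 13.0% and 9.81% of all probe sets were. Without the first Ctm WT array these were -0.69 and 0.59 (adjusted p = 0.0521 and 0.106). The first of them was also short of the threshold without the third 11Q WT array (-0.88, adjusted p = 0.0595), and the second without the first or the third 118Q WT array (0.86 and 0.94, adjusted p = 0.0665 and 0.0689). The other Ryr3 probe sets did not share this: Ctm WT minus 11Q WT was 0.073 for 1432133_at and 0.051 for 1452533_at (F test adjusted p = 0.962 and 0.818), and both Ctm groups had the highest means on 1432133_at. Between 118Q WT and 11Q WT the difference of 1427427_at was -0.092, and 0.0% of all probe sets differed. Each line was set beside littermates of its own, and line and any processing batch cannot be told apart.

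**Figure D3:**
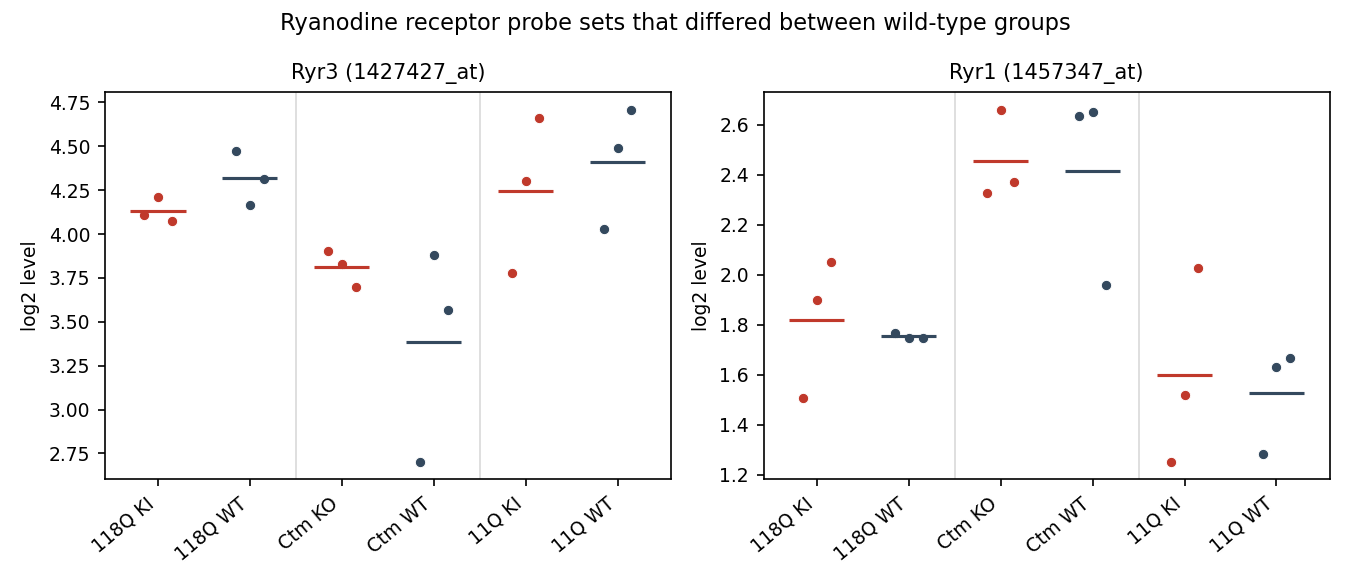
Log2 level (y axis, a separate range in each panel) of the brightest Ryr3 probe set and of the dim Ryr1 probe set on each array of the 6 groups (x axis); bars are means of 3 arrays. Ctm KO and Ctm WT together lie low in Ryr3 (2.70 to 3.91) and high in this Ryr1 probe set (1.96 to 2.66).

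Within lines, the change of Ryr3 on this probe set was -0.19 in 118Q KI (SE 0.25, adjusted p = 0.805), 0.43 in Ctm KO (SE 0.25, adjusted p = 0.567) and -0.16 in 11Q KI (SE 0.25, adjusted p = 0.938). Without the first Ctm WT array the Ctm value was 0.087 (adjusted p = 0.940), and as the mean of the 3 probe sets 0.23. It turns to -0.55 (adjusted p = 0.103) when 118Q WT and 11Q WT together take the place of the Ctm littermates. By group mean the order was 11Q WT, 118Q WT, 11Q KI, 118Q KI, Ctm KO and Ctm WT, and among neighbours only 118Q KI and Ctm KO did not overlap. Probe set 1432133_at (mean 2.79) had changes of -0.19, 0.14 and -0.064 in 118Q KI, Ctm KO and 11Q KI. Probe set 1452533_at (mean 1.95) was at 2.19, 2.08 and 2.49 in 11Q KI, against 1.46, 2.05 and 1.87 in 11Q WT, the only member probe set without overlap in that line. Its change was 0.46 (SE 0.14, unadjusted p = 0.00485, adjusted p = 0.909). Pairs of Ryr3 probe sets correlated at r from 0.042 to 0.24 over the 18 arrays, so they do not give 1 picture of the gene.

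The remaining gene of the family, Ryr2, the cardiac form and also abundant in brain, was named after its values were seen. It was at 6.06, 6.08 and 6.16 in 118Q KI, against 6.33, 6.26 and 6.86 in 118Q WT, with no overlap and a change of -0.39 (SE 0.17, adjusted p = 0.294). With 118Q WT and 11Q WT together as control that change was -0.51 (adjusted p = 0.0436), where 6.28% of all probe sets passed. In Ctm KO it was 0.30 and in 11Q KI 0.029 (adjusted p = 0.541 and 0.985). Among wild types, Ctm minus 11Q was -0.57 for Ryr2 (SE 0.17, adjusted p = 0.0304), the direction of Ryr3 probe set 1427427_at and not of the other Ryr3 probe sets.

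Around the ryanodine receptors, 4 of 32 measured genes of calcium release and refilling changed in 118Q KI, of 37 listed: 1 rose and 3 fell. Over all genes 0.335% rose and 0.363% fell. Atp2a2, the pump that refills the endoplasmic reticulum, was at 9.85, 9.43 and 9.57 in 118Q KI, against 10.4, 10.2 and 10.4 in 118Q WT, and fell by 0.69 (SE 0.11, adjusted p = 0.0200). Casq2, a calcium buffer of the store, fell by 0.77 (SE 0.16, adjusted p = 0.0390) and Asph, whose locus also encodes the release complex protein junctin, by 0.84 (SE 0.18, adjusted p = 0.0477). S100a1, a calcium-binding protein that acts on ryanodine receptors, was at 7.24, 7.66 and 7.44 in 118Q KI, against 6.78, 6.87 and 6.33 in 118Q WT, and rose by 0.79 (SE 0.14, adjusted p = 0.0254). Genotypes did not overlap for any of the 4, though for Asph the highest 118Q KI array lay just below the lowest 118Q WT array (7.06). The probe sets of Casq2, Asph and S100a1 are of a type that can match more than 1 transcript.

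In Ctm KO and 11Q KI 0 of the 32 genes were called, and medians were -0.074 and 0.0029, with 0.0071 in 118Q KI. Smallest p-values were those of the store-operated channel genes Orai2 and Orai3 and of S100a1 in Ctm KO, at -0.37, -0.30 and -0.37 (adjusted p from 0.222 to 0.417), and of the scaffold gene Homer3, the calcium sensor gene Stim2 and the junctophilin gene Jph4 in 11Q KI, at 0.36, -0.19 and 0.25 (adjusted p = 0.909 each). The 4 calls in 118Q KI became 6 without the first 118Q KI array, 2 without the second 118Q WT array and 0 without any 1 of the other 4 arrays of the line. They became 0 with RNA quality as a covariate or with the 6 arrays fitted alone. Those 2 fits also gave 0 calls in the lists of nitric oxide and of other Cav2.1 mutant genes described below. Over 17 alternative fits the count of the calcium release list in 118Q KI ran from 0 to 8. Counts over all probe sets moved across these fits too, and are given with the dependence on the processing. The list counts by fit are thus not read as a result about the list.

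Marker means of Purkinje cells and microglia lay apart between the 118Q genotypes, though not past adjustment. The mean of 10 measured Purkinje markers was 8.36 to 8.94 in 118Q KI and 9.19 to 9.34 in 118Q WT, and 5 of the 10 fell, while that of 11 microglia markers was 4.49 to 5.00 in 118Q KI and 4.03 to 4.40 in 118Q WT, and 2 of the 11 rose. In both cases the exact permutation test gave p = 0.10, the smallest that 3 against 3 arrays allow (adjusted p = 0.72 over 36 comparisons). Over all genes 0.363% fell and 0.335% rose in 118Q KI. Interneuron markers averaged 5.60 to 6.34 in 118Q KI and 6.30 to 6.42 in 118Q WT (0 of 10 called), and endothelial markers 3.95 to 4.39 and 4.39 to 4.78 in the same order (1 of 7 fell). Both of these overlapped between genotypes (exact permutation p = 0.20 each, adjusted p = 0.72). RNA quality, taken as how far the 3′ controls for Gapdh and beta-actin exceed the 5′ ones, was 0.41 to 0.47 in 118Q KI and 0.50 to 0.61 in 118Q WT. In the Ctm line microglia markers averaged 3.89 to 4.02 in Ctm KO and 4.08 to 4.22 in Ctm WT, and in the 11Q line choroid plexus markers 2.77 to 5.86 in 11Q KI and 6.06 to 6.49 in 11Q WT, again without overlap (exact permutation p = 0.10 each, 0 genes called). The part of all these in the values of the members was not tested. Of 12 skeletal muscle markers, a tissue where Ryr1 is abundant, 0 were called, and their mean stayed between 1.24 and 1.54 on all 18 arrays.

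Nos1 had 4 probe sets, a bright pair and a dim pair, and none passed the test in any line. On 1429887_at (mean 6.45, with 88.3% of probe sets dimmer) the levels were 6.29, 6.08 and 6.32 in 118Q KI, against 6.41, 6.55 and 6.50 in 118Q WT. They were 6.44, 6.41 and 6.37 in Ctm KO, against 6.42, 6.34 and 6.42 in Ctm WT, and 6.37, 6.97 and 6.54 in 11Q KI, against 6.69, 6.46 and 6.56 in 11Q WT. The 3 118Q KI arrays were the lowest of all 18, and this is the only member probe set of the line without overlap. Its change there was -0.26 (SE 0.13, adjusted p = 0.374), a ratio of 0.836 with a 95% interval from 0.695 to 1.01. As the mean of the 4 probe sets the 118Q change was -0.060 (adjusted p = 0.860). The change of 1429887_at alone was 0.013 in Ctm KO (interval from -0.25 to 0.28) and 0.060 in 11Q KI (interval from -0.21 to 0.33). Over the groups the order was 11Q KI, 11Q WT, 118Q WT, Ctm KO, Ctm WT and 118Q KI, and of its neighbours only Ctm WT and 118Q KI did not overlap.

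The next Nos1 probe set, 1438483_at, was at 5.76, 5.47 and 5.66 in 118Q KI, against 6.15, 6.12 and 5.41 in 118Q WT, so that the third 118Q WT array was the lowest of the 6. Its changes were -0.26 in 118Q KI, 0.15 in Ctm KO and 0.29 in 11Q KI (SE 0.21 each, adjusted p from 0.632 to 0.909). It correlated with 1429887_at at r = 0.41 over the 18 arrays. The dim probe sets 1422949_at (mean 1.88) and 1458626_at (mean 0.51) had changes from -0.12 to 0.27 over the 3 lines, with adjusted p from 0.491 to 0.984, and the dimmest correlated with 1429887_at at r = -0.50.

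**Figure D4:**
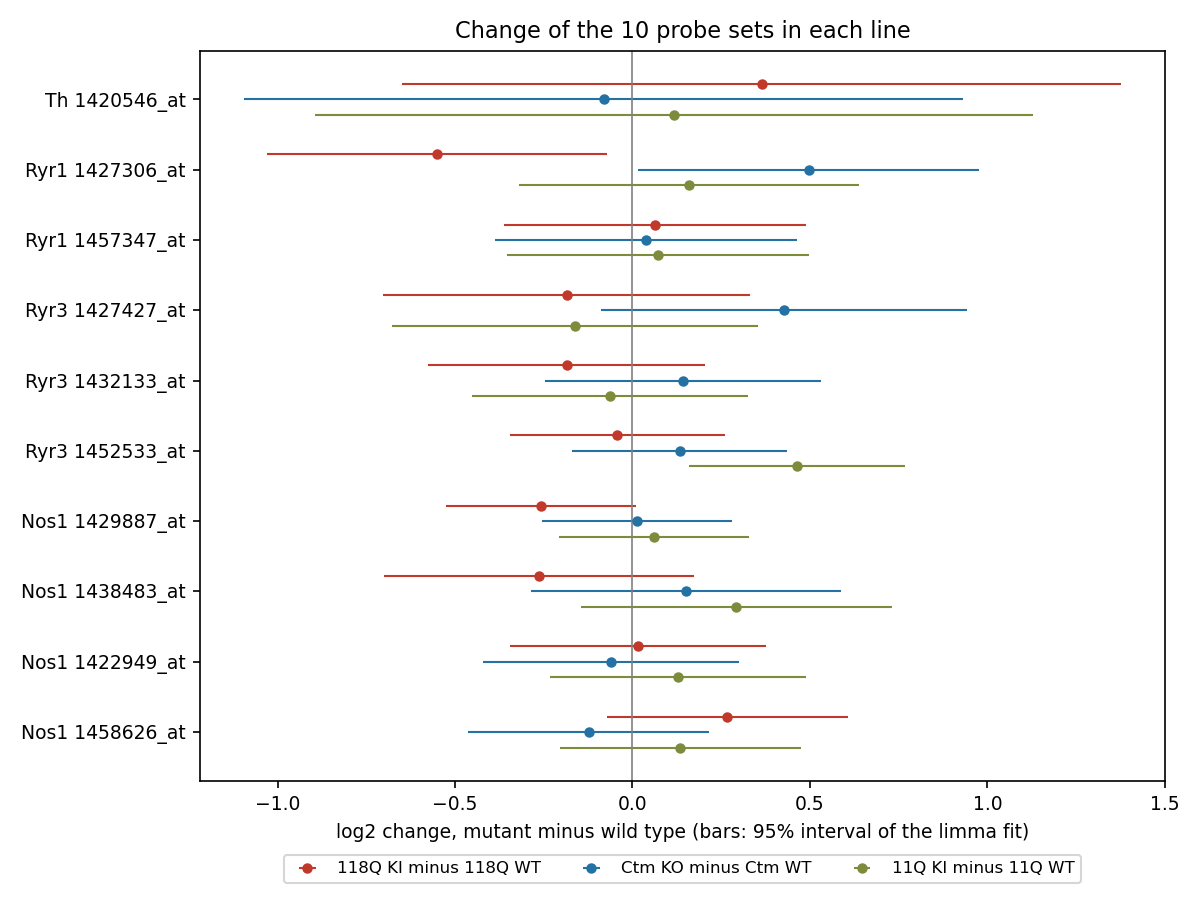
Log2 change, mutant minus wild type (x axis), of each of the 10 probe sets (y axis) in 118Q KI, Ctm KO and 11Q KI; points are limma's estimates and bars 95% intervals of the fit, not adjusted for the number of probe sets. The bars of Ryr1 1427306_at lie below 0 in 118Q KI and above 0 in Ctm KO, and that of Ryr3 1452533_at above 0 in 11Q KI; those of Th are the longest.

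A list of nitric oxide and cGMP genes held the other synthases, their partners, enzymes of arginine and synthase inhibitor metabolism, and the cyclases, kinases and phosphodiesterases of cGMP. Of its 27 measured genes (28 listed) 1 fell in 118Q KI and 0 rose, against 0.363% and 0.335% over all genes. It was Pde5a, a phosphodiesterase that breaks down cGMP, at 5.74, 5.05 and 5.23 in 118Q KI, against 6.02, 5.94 and 6.50 in 118Q WT, with a fall of 0.82 (SE 0.16, adjusted p = 0.0374). The Pde5a probe set used, the brightest of 3, is of a type that can also match other transcripts. Prkg1, the cGMP-dependent protein kinase, was at -0.74 (SE 0.17, adjusted p = 0.0502) and its Purkinje cell substrate Ppp1r17 at -0.89 (SE 0.20, adjusted p = 0.0523), both without overlap and just short of the threshold. Ppp1r17 is also one of the Purkinje markers given above. Without the first 118Q KI array 6 of the 27 were called, 2 without the second 118Q WT array and 0 without any 1 of the other 4. Over 17 alternative fits the count of the list ran from 0 to 7. The count over all probe sets moved across these fits as well, so the list counts by fit are not read as a result about the list. The median of the list was 0.014 in 118Q KI, against 0.040 over all genes.

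In Ctm KO 1 of the 27 rose and 0 fell, against 0.781% and 0.077% over all genes. Gucy1a2, a subunit of the guanylyl cyclase that nitric oxide activates, was at 5.40, 5.32 and 5.46 in Ctm KO, against 4.81, 3.35 and 3.37 in Ctm WT, a rise of 1.55 (SE 0.26, adjusted p = 0.0121). The arrays of the knock-in lines ran from 4.83 to 5.74, so that Ctm WT and not Ctm KO stood apart. With 118Q WT and 11Q WT together as control Gucy1a2 was not called. There 3 others of the 27 were, against 9.89% of all probe sets. Gucy1a2 was also not called without the third Ctm WT array or any 1 of the Ctm KO arrays. The next p-values in Ctm KO were those of the phosphodiesterase gene Pde2a and of Ddah2, whose enzyme breaks down an inhibitor of nitric oxide synthases, at -0.34 and -0.29 (adjusted p = 0.171 and 0.390). In 11Q KI 0 of the 27 were called, with Nostrin, a partner of the endothelial synthase, at -0.65, the endothelial synthase Nos3 at 0.43 and Prkg1 at -0.34 (adjusted p = 0.909 each).

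**Figure D5:**
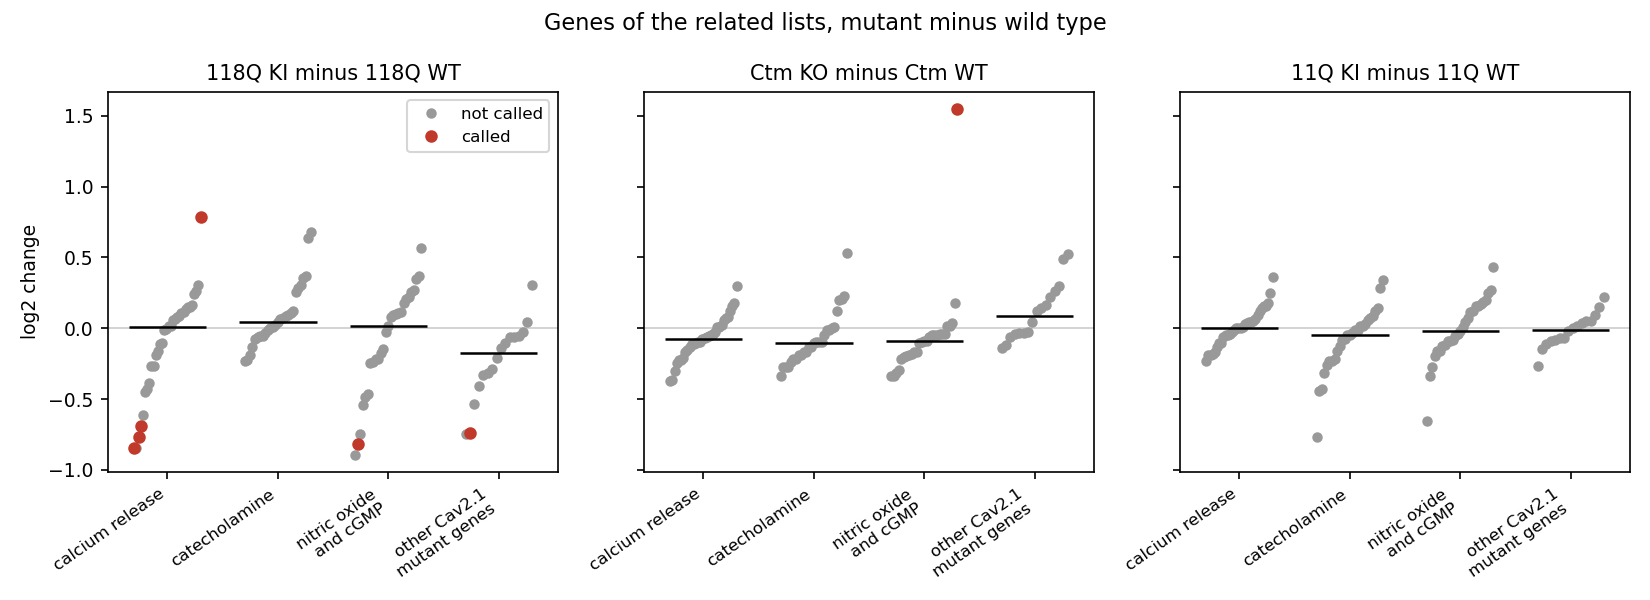
Log2 change, mutant minus wild type (y axis), of each measured gene of 4 lists (x axis) in the 3 lines; each point is 1 gene, red where the adjusted p is below 0.05, and black bars are list medians. In 118Q KI 4, 0, 1 and 1 genes are called in the lists of calcium release, catecholamine, nitric oxide and cGMP, and other Cav2.1 mutant genes, in Ctm KO 1 gene in all, and in 11Q KI 0.

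Further channel and Purkinje cell genes studied in Cav2.1 mutants formed a list of 16, all measured. In 118Q KI 1 of the 16 fell and 0 rose, against 0.363% and 0.335% over all genes. It was the auxiliary calcium channel subunit gene Cacna2d2. Its levels were 7.11, 6.45 and 6.67 in 118Q KI, against 7.57, 7.40 and 7.48 in 118Q WT, a fall of 0.74 (SE 0.14, adjusted p = 0.0266). Calb1, a calcium buffer of Purkinje cells, was at -0.75 and the phospholipase gene Plcb4 at -0.41 (adjusted p = 0.0606 and 0.111). Calb1 is also one of the Purkinje markers given above. The list had a median of -0.17, with 14 of 16 values below 0, against a median of 0.040 over all genes. Without the first 118Q KI array 4 of the 16 were called, and 0 without the second or the third 118Q KI array or the first or the third 118Q WT array. Over 17 alternative fits the count of the list ran from 0 to 6. As for the other lists, the count over all probe sets moved across these fits, so the list counts by fit are not read as a result about the list. In Ctm KO 0 were called, the nearest being the channel beta subunit gene Cacnb4 at 0.53, the GABA receptor gene Gabrb2 at 0.49 and Plcb4 at 0.30 (adjusted p = 0.0576, 0.205 and 0.312). Cacnb4 was called without dim probe sets, with trend and robust settings, with renewed quantile normalization and with 118Q WT and 11Q WT together as control. It was called along with Gabrb2 with array weights and without the first Ctm WT array. In 11Q KI 0 were called, with Kcnn2, a calcium-activated potassium channel gene, at -0.26, the calcium buffer gene Pvalb at 0.15 and the T-type calcium channel gene Cacna1g at 0.22 (adjusted p = 0.909 each).

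Genes with the most similar profile over the 18 arrays were looked up for each member among the brighter 50% of genes. For Th they were Cry2, Patz1 and Rab3b (Pearson r of 0.77, 0.75 and 0.75, and 0.67, 0.62 and 0.45 without the first 118Q KI array). For Ryr1 they were Syne1, Kmt2d and Dst (0.84, 0.80 and 0.80). For Ryr3 they were Ascc2, Qtrt2 and Gabpb2 (0.88, 0.87 and 0.86), and for Nos1 Mgat5, Uhmk1 and Zfpm2 (0.81, 0.77 and 0.77). After removal of the group means the r of these 12 genes lay between 0.46 and 0.81. These are descriptions over arrays that share lines and littermate groups.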

How the data were processed

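Values are log2 expression levels per probe set, which the authors deposited for 18 arrays and made with RMA per the submitters' processing notes; the version is not given in the sources used here. RNA came from cerebellum with an integrity number above 5.0, per the labels' protocols. Of 45101 probe sets, 64 are controls; the 34945 with 1 symbol in the platform annotation (18193 genes) were tested. limma 3.58.1 in R 4.3.3 was fitted to the 18 arrays together, a mean for each group, with a constant eBayes prior (12 residual and 5.88 prior degrees of freedom), adjusted by Benjamini-Hochberg. In simulated data for the 118Q comparison (34945 probe sets), 84% of changes of log2 size 1 and 100% of size 2 were recovered. The changed probe sets were drawn at random from the whole table. These shares do not describe Th, whose SE of 0.48 was larger than that of any other member. The number of arrays limits the precision. Each gene of a list is represented by its brightest probe set; list genes without a probe set of their own were not analysed here. Named were all member probe sets and, of each list and line, the called genes (up to 6) or else the 3 smallest p-values, with exceptions said. Members and lists were chosen with earlier results of these data known. The labels do not say that replicate numbers pair the arrays, and the arrays were not treated as paired. Deviations of same-numbered arrays correlated from -0.12 to 0.22, which cannot settle whether the numbers mark pairs. Alternatives covered the probe set rule, dim probe sets, variance model, array weights, normalization, RNA quality and choroid plexus covariates, replicate block, arrays fitted and each array left out.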

Additional observations from a re-analysis of the deposited data

How the results depend on the processing

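Of 553 values of the 10 probe sets under alternatives, 507 kept direction and call, 35 turned in sign, 10 lost a call, all between wild types, and 1 gained one, the dim Ryr1 probe set in Ctm KO with 118Q WT and 11Q WT together as control (0.81). No value that turned in sign was called (smallest adjusted p = 0.103), and the cause was not tested. In 118Q KI, Th turned to -0.17 with array weights, Ryr1 1457347_at to -0.041 with the RNA quality covariate, Nos1 1422949_at to -0.0024 with renewed quantile normalization and Ryr3 1452533_at to 0.024 with 118Q WT and 11Q WT as control. That control gave -0.55 for Ryr3 1427427_at, 0.24 for Th and -0.12 for Nos1 1429887_at in Ctm KO, and Nos1 was at -0.018 there with the choroid plexus covariate and -0.0051 as the mean of its probe sets. In 11Q KI the choroid plexus covariate gave -0.030 for Nos1 1429887_at and 0.081 for Ryr3 1432133_at, while Ryr3 1427427_at was at 0.023 with array weights and 0.079 as the mean of its probe sets.

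With each array left out in turn, 118Q KI changes ran from -0.59 to 0.89 for Th, from -0.053 to 0.22 for Ryr1 1457347_at and from -0.046 to 0.082 for Nos1 1422949_at. In Ctm KO they ran from -0.26 to 0.093 for Th, -0.19 to 0.16 for Ryr1 1457347_at and -0.012 to 0.032 for Nos1 1429887_at. In 11Q KI they ran from -0.036 to 0.22 for Th, -0.14 to 0.25 for Ryr1 1457347_at, -0.37 to 0.071 for Ryr3 1427427_at, -0.32 to 0.18 for Ryr3 1432133_at, -0.11 to 0.19 for Nos1 1429887_at and -0.056 to 0.34 for Nos1 1422949_at. Between wild types, Ryr3 1427427_at ran from -0.28 to 0.058 in 118Q minus 11Q, from 0.59 to 1.18 in 118Q minus Ctm and from -1.27 to -0.69 in Ctm minus 11Q. Without the first 118Q KI array, an alternative added after seeing the data like all those between wild types, the Th difference was -0.51 for 118Q minus Ctm and -0.70 for 118Q minus 11Q, where Ryr1 1457347_at was at 0.15.

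Counts of all probe sets called moved far more than the members. The 195 in 118Q KI became 0 with the 6 arrays alone, 1 with the RNA quality covariate, 1681 with array weights, 491 without dim probe sets, 412 with trend and robust settings, 299 with renewed quantile normalization, 92 with the replicate block, 2194 with 118Q WT and 11Q WT as control, and 1 to 1078 with an array left out. The 320 in Ctm KO became 2 alone, 1028 with weights, 169 on brightest probe sets, 176 on gene means, 492 without dim probe sets, 3456 with 118Q WT and 11Q WT as control, and 4 to 796 with an array left out. The 0 in 11Q KI became 4 alone, 5 with weights, 3 with trend, 1 with the block and 0 to 2 with an array left out. The 570 between the 118Q and Ctm changes became 1239 without dim probe sets and 1248 without the first 118Q KI array, and the 0 between 118Q and 11Q became 89 without it. Wild types gave 1 with trend and 0 to 1 with an array left out for 118Q minus 11Q (0 otherwise), 1576 to 2963 for 118Q minus Ctm (3427) and 2485 to 4034 for Ctm minus 11Q (4532). The replicate block changed no call of a member, and deviations of same-numbered arrays correlated weakly and in both directions.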

Other observations

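The 118Q KI array with the highest Th level also stood apart in other genes, which were named after their values were seen. Taking the brightest probe set of each of 18193 genes, 7 exceeded every other array by more than 1 on the log2 scale. Besides Th and Ddc these were Clec7a, a pattern receptor of phagocytes, at 3.54 against at most 2.07 elsewhere, and the chemokine gene Ccl3 at 2.15 against 0.81. Itih3, a gene of a hyaluronan-binding serum protein, was at 8.11 against 6.75, the lipoprotein lipase gene Lpl at 3.80 against 2.52, and Spaca6, a sperm protein gene, at 4.14 against 2.71. A gap over 1 was found for 6 genes each on the third 11Q WT array (largest for Hoxb5, 2.80) and on the first 11Q KI array (largest for Usp18, an interferon-induced gene, 1.67), and for 0 genes on the other 15 arrays. The first 118Q KI array had the highest Purkinje and microglia means of its genotype, 8.94 and 5.00. Their part in its Th level was not tested.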
